A study of Mus musculus with 6 samples.

Results

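The Fgf, Wnt and Bmp genes of mouse mostly encode secreted growth factors that pattern the embryo. They were taken as every row of the deposited count table whose symbol is Fgf, Wnt or Bmp followed by a number and, for Wnt and Bmp, at most a letter a or b. The rule gave 51 of the table's 13177 rows, made up of 22 Fgf, 19 Wnt and 10 Bmp genes. All 51 are called growth factor genes below, although Fgf11, Fgf12, Fgf13 and Fgf14 encode intracellular proteins and Bmp1 a protease. The same RefSeq gene table holds 52 such symbols, and Bmp3 was the one not matched to a row. A row enters the table by its reads, and the set was selected on symbols, with the counts and CPM of these 6 libraries already known, so the levels below describe the genes and carry no test.

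RNA came from CD4+ T cells of mouse, the helper T lymphocytes, isolated with magnetic beads and given a synthetic oligonucleotide of the microRNA miR-155. The groups were 3 control libraries, described as 0 h, and 3 libraries collected 8 h after transfection. The treatment label of both groups names the oligonucleotide, no 8 h sample without it was analysed here, and time and exposure therefore cannot be told apart. The descriptions of the 8 h samples say CD5+ where all source labels say CD4+. The sources used here give neither strain nor age, nor whether replicates came from separate animals or cultures, so p-values measure only the spread between these libraries, which may be technical.

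Fibroblast growth factors (FGF) mostly bind receptor tyrosine kinases of the Fgfr family and signal through the Ras and MAP kinase cascade. WNT proteins bind Frizzled receptors, and in one branch of the pathway this stabilises beta-catenin, the partner of the T cell factors Tcf7 and Lef1. Bone morphogenetic proteins (BMP) belong to the TGF-beta superfamily and signal through serine/threonine kinase receptors and the Smad proteins. All 3 families are best known from embryonic tissues, stroma and epithelia. T lymphocytes are better known as cells that respond to such signals, in thymus above all, than as their source.

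Whole-library facts bear on every value. Library totals ran from 4564010 to 13675127 counts. Of 15 T cell markers Cd2, Cd3d, Cd3e, Cd3g, Cd5, Lck and Thy1 reached between 5442 (Thy1) and 162085 counts (Lck) in their highest library. These too varied between libraries, with Lck from 171 to 162085, Thy1 from 41 to 5442 and Cd5 from 3020 to 27651 counts. Cd4 had only 5 to 10, Tcf7 3 to 25 and Zap70 2 to 17 counts, and the housekeeping genes Actb and Gapdh at most 5 and 11. With such low values of genes that every cell uses, and no counting method given, it is unclear if each row is a plain tally of a gene's reads, and levels of different genes may not be comparable. Summed over the 15 markers, the level was 3418 to 19640 CPM (counts per library size, scaled by the TMM method) in controls and 5470 to 12521 CPM at 8 h. Lists of other cell types, whose RNA could bring such genes along, were summed too. The 15 fibroblast and stromal markers, which include Thy1, gave 52.5 to 335 CPM in controls and 252 to 730 CPM at 8 h. The 13 epithelial markers gave 36.1 to 77.1 and 23.8 to 597 CPM, the 13 neuronal markers 21.3 to 161 and 37.8 to 271 CPM, and the 12 pluripotency and early embryo markers 29.3 to 141 and 44.2 to 831 CPM. The 10 matched of 11 osteoblast and cartilage markers gave 29.8 to 2150 CPM in controls, the highest in control 3, and 84.6 to 140 CPM at 8 h. The 11 endothelial markers gave 82.0 to 215 and 23.6 to 39.0 CPM, without overlap. Of the 6 tested 2 had higher and 4 lower values at 8 h, with a median log2 fold change of -1.09. On its own 0 of the 11 was free of overlap between groups, where 10.8% of all tested rows were. The sums overlapped without Tek, but stayed apart without Pecam1 (34.7 to 198 against 17.4 to 27.4 CPM) and without Cldn5. The 9 B cell markers gave 73.2 to 114 and 62.2 to 178 CPM, the 11 matched of 12 myeloid markers 43.7 to 209 and 34.4 to 73.5 CPM, and 24 matched of 28 developmental genes of other families, such as Hedgehog and Notch ligands, 174 to 404 and 129 to 251 CPM. Every matched gene of these lists had a count in at least 1 library, but so did all 13177 rows of the table. Such sums often rest on 1 gene, which held over 50% of the sum in 32 of the 60 sums of 10 marker lists in 6 libraries. The part of other cells in the values of the growth factor genes was not tested, and in bulk RNA fewer cells of a type and less RNA per cell cannot be told apart.

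The oligonucleotide copies a microRNA, so the match of these genes to its seed, the bases that pair with a target, comes first. The mature sequences below are those of RefSeq (GRCm38.p6, chromosome 16, plus strand), with bases 2 to 8, the seed, in capitals. The sources used here do not give the oligonucleotide's own sequence.
mmu-miR-155-5p: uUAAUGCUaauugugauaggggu
mmu-miR-155-3p: cUCCUACCuguuagcauuaac

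The 3' untranslated region of the GENCODE M21 transcript linked to each row was searched on the transcript strand for AGCATTA or GCATTAA, the 7-base seed matches of miR-155-5p, which together form the 8-base match AGCATTAA. A region was found for 50 of the 51 genes, and 4 of them, or 8%, held a match, against 10.8% of the 12550 rows with a region. The median region was 1486 bases long in the growth factor genes and 791 bases over all rows. All 4 were Fgf genes, namely Fgf1, Fgf2, Fgf7 and Fgf13. The sites of Fgf2, Fgf7 and Fgf13 are printed with 22 bases each, seed match in capitals, to show which transcripts the oligonucleotide could pair with.
Fgf2 (chr3:37407683-37407704, GRCm38, plus strand, exon 3 of 3): atgtttcatctatctAGCATTA
Fgf7 (chr2:126090427-126090448, GRCm38, plus strand, exon 4 of 4): ccctctgtgattacAGCATTAA
Fgf7 (chr2:126089731-126089752, GRCm38, plus strand, exon 4 of 4): ttattttaaaagactGCATTAA
Fgf13 (chrX:59063316-59063337, GRCm38, minus strand, exon 6 of 6): tgcaaaagagtgccaAGCATTA
Fgf13 (chrX:59062298-59062319, GRCm38, minus strand, exon 6 of 6): tatgtaagattttgtGCATTAA

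A match of letters is a description and no proof of a working site. Fgf2, a mitogen for many cell types that lacks a classical signal peptide, had 24, 19 and 12 counts in the control libraries (replicates 1 to 3 in this order, here and below) against 43, 100 and 90 at 8 h. Its level was 3.05 ± 1.72 CPM (SD, n = 3) in the control group against 8.54 ± 4.09 CPM (SD, n = 3) at 8 h, every 8 h library lying above every control. The log2 fold change was 1.48 ± 1.61 (SE), smaller than its error, and the quasi-likelihood test of edgeR, adjusted over all rows, gave an adjusted p of 0.825.

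Fgf13, which encodes an intracellular protein that binds sodium channels and carries both sites shown above, had 36, 11 and 69 counts in the control libraries against 18, 204 and 560 at 8 h. The groups overlapped, since 8 h replicate 1 lay just below every control. Its log2 fold change was 2.72 ± 1.80 (SE; edgeR adjusted p = 0.675), and 0.85 without 8 h replicate 3. Fgf7, the keratinocyte growth factor and the one gene with the 8-base match, had 127, 2 and 2 counts in the control libraries against 2, 81 and 6 at 8 h, too few for the test. One control and one 8 h library thus held nearly all of its reads. Fgf1, or acidic FGF, had 39, 1 and 4 counts in the control libraries against 132, 1 and 0 at 8 h. The 2 tested genes with a site, Fgf2 and Fgf13, both had higher values at 8 h, and of the 752 tested rows with a site 367 had higher and 385 lower values.

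By mean level over the 6 libraries the growth factor genes sat in the middle of the table. Their median over the genes of the mean CPM was 5.58, and that of all rows 5.23. Per kilobase of transcript, which allows for length but not for the doubt about the counts given above, the medians were 2.20 and 2.19 CPM per kb, and 26 of the 51 genes stood above the median row. The T cell markers had a median of 93.5 CPM per kb. Receptors and signalling genes of the 3 pathways were lower, with medians of the 3 lists between 0.976 (WNT) and 1.07 CPM per kb (FGF). Fgf9 had the highest level per length of the 51, at a mean of 86.9 CPM per kb, and Bmp8a the lowest, at 0.127. These are means over 6 libraries, which a peak in 1 library lifts. Within control 1 the median growth factor gene stood at 1.97 CPM, as did the median row. In every other library it was lower, such as 0.939 against 2.23 CPM in 8 h replicate 1. At least 10 counts in every library were found for 5.88% of the 51 genes and 29.8% of all rows.

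**Figure D1:**
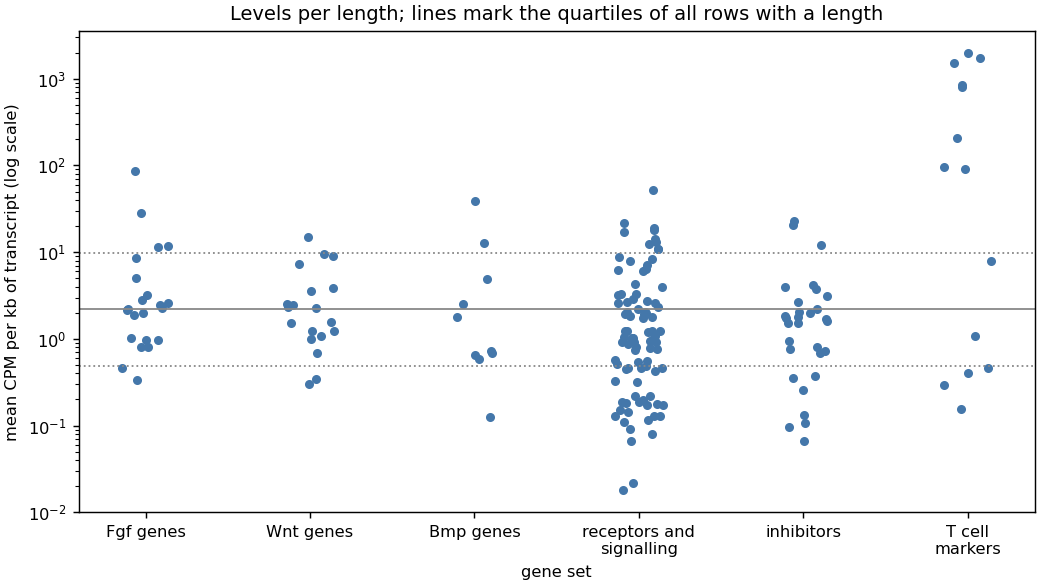
Mean level over 6 libraries in CPM per kb of transcript on a log axis, 1 point per gene, for the Fgf, Wnt and Bmp genes, their receptors and signalling genes, their inhibitors and T cell markers. The solid line is the median of all rows with a length (2.19) and the dotted lines are the quartiles; points of the growth factor genes lie on both sides of the median, while the T cell markers split into a high and a low group.

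Summed over the 51 genes, the share of a library was 0.0621 ± 0.0314% for controls against 0.0742 ± 0.0158% for 8 h (SD, n = 3 each). Control shares ran from 0.0317 to 0.0944% and 8 h shares from 0.0609 to 0.0916%, so the ranges overlapped. The 3 families differed in how their shares lay. Fgf genes took 0.0464 ± 0.0325% of controls against 0.0189 ± 0.0104% of the 8 h libraries (SD, n = 3 each), and Wnt genes 0.0121 ± 0.00184% and 0.0265 ± 0.0146%, with overlap in both. Bmp genes took 0.00349 ± 0.00101% of controls against 0.0288 ± 0.0223% of the 8 h libraries (SD, n = 3 each). All 8 h libraries lay above the controls, though replicate 1 only just, at 0.00433% against a highest control of 0.00426%. On TMM-scaled library sizes, which all CPM here use, the groups overlapped, with 0.00434% in 8 h replicate 1 against 0.00492% in control 1. A single gene made up much of each library's sum. Wnt2 held 19.0% of the 51 genes' counts in control 1, Fgf16 44.4% in control 2 and Fgf9 77.3% in control 3. Fgf10 held 39.3% in 8 h replicate 1, Bmp4 65.7% in replicate 2 and Wnt8b 32.6% in replicate 3. The leading gene thus differed in all 6 libraries.

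**Figure D2:**
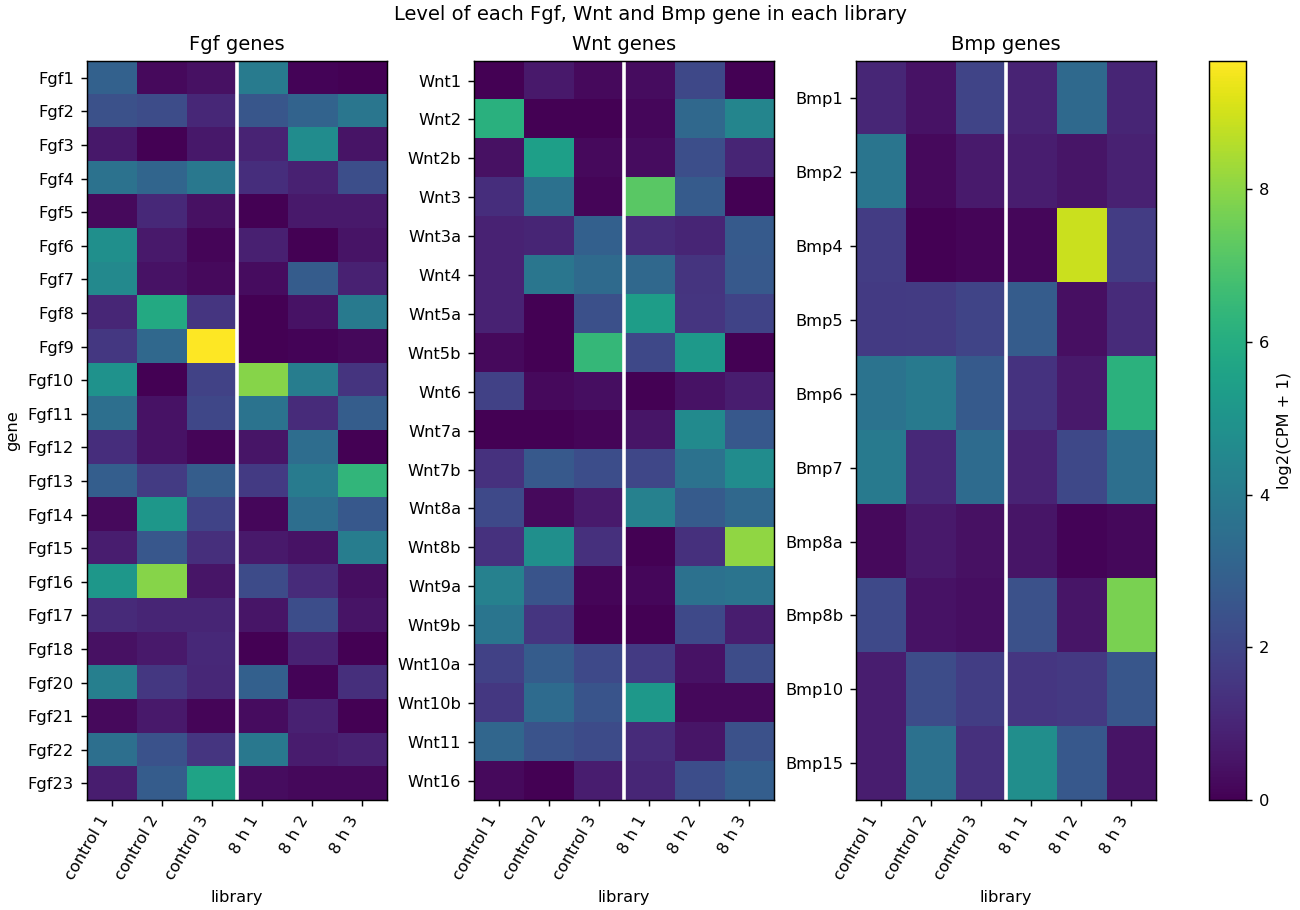
Level of each of the 51 genes as log2(CPM + 1), in colour, with libraries in columns (controls left of the white line, 8 h right of it) and genes in rows, by family. Some rows show 1 or 2 bright cells among dark ones, such as Fgf9 in control 3 (820 CPM) and Bmp4 in 8 h replicate 2 (474 CPM). Others stay dark throughout, such as Bmp8a with no more than 0.596 CPM in any library. The bright cells fall in different libraries for different genes.

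Counts of a growth factor gene were thus mostly concentrated in 1 library. The highest library held over 50% of a gene's summed CPM for 32 of the 51 genes, or 62.7%, against 43.6% of all rows, and over 80% for 14 genes, or 27.5%, against 11.1%. The median share was 66.1% for the 51 genes and 46.7% for all rows. By family the median was 66.6% for Fgf, 67.9% for Wnt and 58.2% for Bmp genes. No library drew the peaks to itself, since control 1 was the highest library for 10 genes, controls 2 and 3 for 8 and 6, and the 8 h replicates for 10, 8 and 9. The difference from all rows is a description and was not tested.

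**Figure D3:**
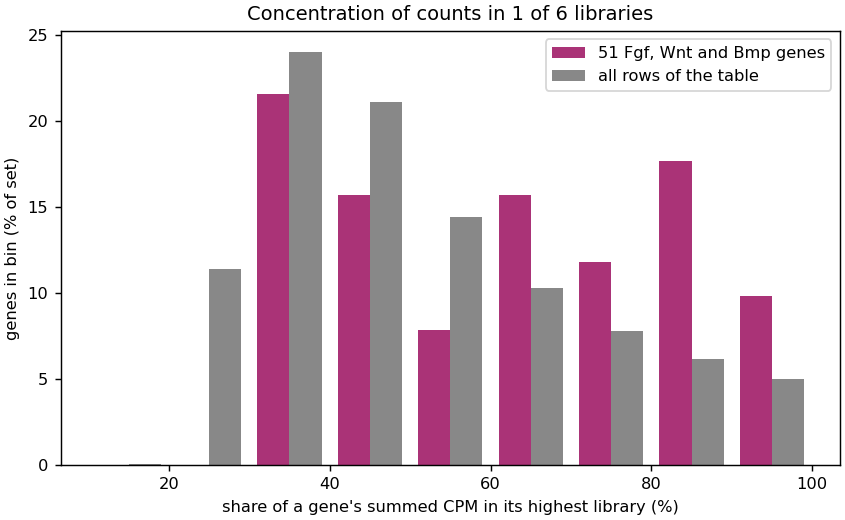
Share of a gene's summed CPM that lies in its highest library (x axis, %), as the percent of genes in each bin of 10 points, for the 51 growth factor genes and for all 13177 rows. Of the 51 genes 27.5% lie above 80%, and 11.1% of all rows.

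The order of the genes was nearly unrelated from library to library. Across the 51 genes Spearman's rho of CPM averaged 0.0893 for the pairs of libraries within a group (from -0.0481 to 0.327) and 0.0630 for pairs between groups (from -0.281 to 0.335). Over all rows it averaged 0.542 and 0.539. These are correlations across genes, which are not independent replicates and share the library's depth, and they carry no test. For the growth factor genes the gap between these averages was small beside the range over pairs.

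The genes are described next by subfamily, beginning with FGFs that act through receptors. The Fgf9, Fgf16 and Fgf20 group, which signals between epithelium and mesenchyme in lung, heart and inner ear, had lower values at 8 h in all 3 members, without a call. Fgf9 (chromosome 14, 58070671 to 58112854, GRCm38) had 11, 44 and 8988 counts in the control libraries against 0, 1 and 1 at 8 h. In control 3 it stood at 515 CPM per kb, where Actb had 0.143. Every control lay above every 8 h library, but control 3 held 98.7% of the summed CPM. With 9043 counts against 2, the pooled ratio of controls to 8 h was 6011, with an exact 95% counting interval of 1664 to 49642, and 74.3 (19.6 to 629) without control 3. Such an interval covers counting error only. The fitted log2 fold change, -11.65 ± 2.94 (SE; edgeR adjusted p = 0.316), depends on the prior count and is no bound, and was -5.92 without control 3. This adjusted p was the lowest reached, and 2 rows shared it. Of the 2150 CPM of osteoblast and cartilage markers in control 3, Spp1 made up 2021 CPM, and the other 9 markers summed to 129 CPM there against 17.3 to 601 CPM elsewhere. A relation of these markers to the Fgf9 peak was not tested.

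Fgf16 (chromosome X, 105764477 to 105776532) had 192, 1218 and 5 counts in the control libraries against 31, 17 and 2 at 8 h, or 92.3 ± 131 and 1.74 ± 1.72 CPM (SD, n = 3 each). The groups overlapped, because control 3 was as low as the 8 h libraries. Its log2 fold change was -5.72 ± 2.12 (SE; edgeR adjusted p = 0.435, DESeq2 adjusted p = 0.0103), and -3.29 without control 2. Over the alternatives the adjusted p ran from 0.0103 to 0.998. Fgf20 had 95, 10 and 12 counts in the control libraries against 58, 1 and 10 at 8 h, so that its groups overlapped as well.

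Fgf4, Fgf5 and Fgf6 form another group, of which Fgf4 acts on early embryonic and limb tissue. Fgf4 (chromosome 7, 144861386 to 144865245) had 65, 40 and 151 counts in the control libraries against 12, 11 and 28 at 8 h. It was one of 19 genes of the 51 in which no library held over 50% of the CPM. Its level was 11.1 ± 2.94 CPM in the control group against 2.10 ± 1.72 CPM at 8 h (SD, n = 3 each), and the groups did not overlap. The log2 fold change was -2.41 ± 1.68 (SE; edgeR adjusted p = 0.694). Fgf6, known from skeletal muscle, had 151, 3 and 1 counts in the control libraries against 7, 0 and 3 at 8 h, and Fgf5, a regulator of hair growth, at most 8 counts.

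Fgf3, Fgf7, Fgf10 and Fgf22 mostly signal from mesenchyme to epithelium. Fgf10, needed for limb and lung buds, had 167, 0 and 30 counts in the control libraries against 2042, 216 and 12 at 8 h. Its log2 fold change was 2.98 ± 1.86 (SE; edgeR adjusted p = 0.653) and fell to -0.23 without 8 h replicate 1, which held 82.6% of its CPM. Of the 597 CPM of epithelial markers in that replicate Krt19 made up 558 CPM, and the other 12 markers summed to 39.6 CPM there against 23.6 to 76.8 CPM elsewhere. A relation of these markers to the Fgf10 peak was not tested. Fgf3 had 3, 0 and 6 counts in the control libraries against 8, 332 and 3 at 8 h, and Fgf22 60, 22 and 20 against 118, 9 and 6. The groups overlapped for Fgf10, Fgf3 and Fgf22 alike.

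Fgf8, an organiser signal of the midbrain border and the limb, had 6, 295 and 20 counts in the control libraries against 0, 5 and 104 at 8 h. Its relatives Fgf17 and Fgf18 had at most 52 and 13 counts. The hormones of the family, which need a Klotho protein as co-receptor, were scattered likewise: Fgf23, the phosphate hormone of bone, had 4, 30 and 527 counts in the control libraries against 2, 2 and 1 at 8 h, without overlap but below the filter for testing. Fgf15, the gut hormone that restrains bile acid synthesis, had 4, 26 and 16 against 5, 5 and 112 counts, and Fgf21, a liver hormone, at most 11. Of the intracellular FGFs, which are not secreted, Fgf14 had 1, 172 and 31 counts in the control libraries against 1, 138 and 37 at 8 h, Fgf11 59, 2 and 35 against 101, 17 and 43, and Fgf12 8, 2 and 1 against 4, 134 and 0. High and low libraries of Fgf14 and Fgf11 occurred in both groups, whereas Fgf12 was high in 8 h replicate 2 alone.

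**Figure D4:**
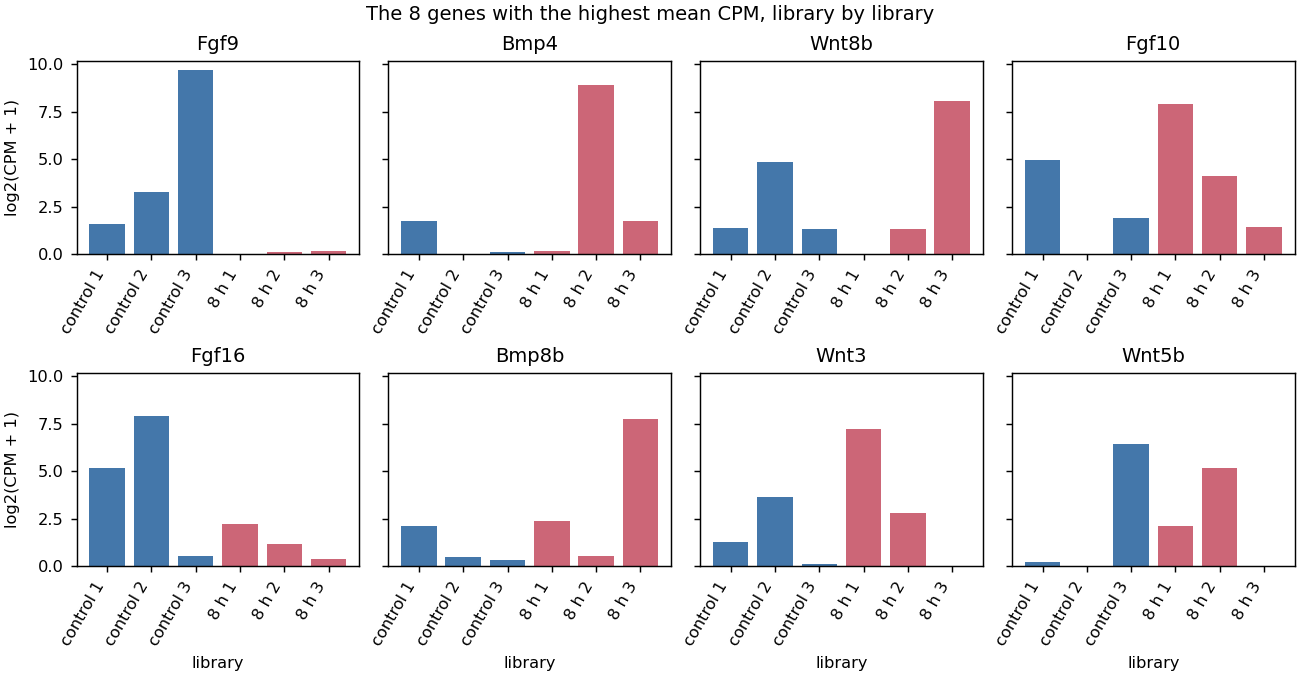
Bars give log2(CPM + 1) in each library (blue controls, red 8 h) for the 8 of the 51 genes with the highest mean CPM. In each panel 1 bar stands above the others, in control 3 for Fgf9, in 8 h replicate 2 for Bmp4 and in 8 h replicate 3 for Wnt8b and Bmp8b.

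Among WNT genes that mostly act through beta-catenin, Wnt3, required for gastrulation, had 8, 57 and 1 counts in the control libraries against 1253, 78 and 0 at 8 h. Wnt3a, a close relative, had 5, 5 and 74 against 11, 13 and 39. Wnt8b, a gene of the developing forebrain, had 9, 139 and 17 counts in the control libraries against 0, 20 and 1862 at 8 h, and its log2 fold change of 3.14 ± 1.88 (SE; edgeR adjusted p = 0.643) was -3.65 without 8 h replicate 3. The groups overlapped for each of these genes.

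Wnt8a (chromosome 18, 34542327 to 34548061), its paralog, was more even. It had 19, 1 and 7 counts in the control libraries against 155, 77 and 60 at 8 h, or 1.41 ± 1.73 and 10.9 ± 6.48 CPM (SD, n = 3 each). Every 8 h library lay above every control, and the log2 fold change was 2.94 ± 1.71 (SE; edgeR adjusted p = 0.632). Wnt7a and Wnt16 also had every 8 h library above every control, with 0, 0 and 1 counts against 4, 312 and 37 and with 1, 0 and 8 against 9, 51 and 45, but both were below the filter. Wnt7a is known for patterning the dorsal limb and Wnt16 from bone. Wnt7b, important in lung, had 9, 28 and 43 counts in the control libraries against 27, 154 and 174 at 8 h, with overlap.

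The other WNT genes gave peaks in either group. Wnt2, a lung mesenchyme signal, had 390, 0 and 0 counts in the control libraries against 1, 116 and 140 at 8 h. Wnt2b had 2, 218 and 2 against 2, 53 and 7, and Wnt10b, studied in bone and hair follicle, 11, 48 and 51 against 296, 2 and 1 counts. Wnt5a and Wnt5b, which mostly act without beta-catenin, differed from each other in their peaks. Wnt5a had 5, 0 and 45 counts in the control libraries against 345, 24 and 20 at 8 h, and Wnt5b 1, 0 and 940 against 28, 471 and 0. Wnt4, a kidney and ovary signal, was steadier, with 5, 65 and 100 counts against 73, 23 and 38. Wnt9a had 100, 24 and 1 against 1, 147 and 85, Wnt9b, a kidney inducer, 70, 9 and 0 against 0, 45 and 5, Wnt10a 15, 30 and 37 against 18, 5 and 26 and Wnt11 45, 23 and 40 against 11, 6 and 30 counts. The range of each overlapped between groups. Wnt1, the midbrain gene, and Wnt6 had at most 43 and 15 counts.

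The closely related ligands Bmp2 and Bmp4, needed for mesoderm and bone, parted in these libraries. Bmp4 (chromosome 14, 46383525 to 46390669) had 13, 0 and 1 counts in the control libraries against 1, 6293 and 16 at 8 h, or 0.805 ± 1.32 and 159 ± 273 CPM (SD, n = 3 each). The 8 h group held both the highest library and one of the low ones. Of the 831 CPM of pluripotency and early embryo markers in 8 h replicate 2, Mixl1 made up 792 CPM, and the other 11 markers summed to 38.5 CPM there against 27.9 to 137 CPM elsewhere. A relation of these markers to the Bmp4 peak was not tested. The log2 fold change of Bmp4 was 7.62 ± 2.39 (SE, edgeR adjusted p = 0.342) and fell to 0.62 without 8 h replicate 2. Bmp2 had 70, 1 and 7 counts in the control libraries against 6, 6 and 6 at 8 h.

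Of the Bmp5 to Bmp8 group, Bmp8b, known from male germ cells, had 19, 2 and 3 counts in the control libraries against 36, 6 and 1474 at 8 h. Its log2 fold change of 5.74 ± 2.11 (SE; edgeR adjusted p = 0.434) was 0.80 without 8 h replicate 3. Bmp8a, its near copy on the same chromosome, had at most 4 counts, and the sources used here do not say how the counting split reads between such paralogs. Bmp6, the liver signal for iron balance, had 66, 75 and 63 counts in the control libraries against 14, 8 and 495 at 8 h. Bmp7, needed for kidney and eye, had 80, 6 and 103 against 8, 43 and 73 and Bmp5 12, 11 and 33 against 51, 4 and 9. In all of these the groups overlapped. Bmp15, a factor of the oocyte, had 4, 57 and 17 counts against 226, 72 and 3, and the heart factor Bmp10 4, 19 and 26 against 16, 27 and 35. Bmp1, which shares the name but is a protease that trims procollagen, had 6, 2 and 32 counts against 8, 120 and 7.

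The comparison of 8 h with control asked which genes differ after transfer of the oligonucleotide. Of the 51 genes 31 passed the filter on low counts, and edgeR's quasi-likelihood test called 0 of them, as it called 0 of all 8308 tested rows (background 0%). Their adjusted p lay between 0.316 and 0.997. At an unadjusted p under 0.05 it gave 4 of the 31, namely Fgf9, Fgf16, Bmp4 and Bmp8b, where 8.53% of all tested rows reached that level, and for each of the 4 a single library held over 80% of the CPM. The Wald test of DESeq2 called 1 of the 31, Fgf16, and 6.06% of rows with an adjusted p. It gave none for 8 of the 31, among them Fgf9 and Bmp4. On counts simulated with the spread between replicates fitted here, edgeR called 0 of 50 genes given a log2 change of 6. DESeq2 called 37 of those 50, and 2, 18 and 19 of the 50 genes each given a log2 change of 2, 4 and -4. It also called 112 genes given no change, in a simulation of 8308 genes. A 0 from edgeR therefore does not show that genes stayed the same, and a DESeq2 call may be false.

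Values at 8 h were higher for 17 and lower for 14 of the 31 genes, and higher for 51.3% of all tested rows. The median log2 fold change was 0.05 for the 31 genes and 0.06 for all tested rows. By family it was -1.22 over 11 Fgf genes (4 higher, 7 lower), 0.05 over 13 Wnt genes (7 and 6) and 1.19 over 7 Bmp genes (6 and 1). The differences between families were not tested. Groups did not overlap for 4 of the 31, with Fgf2 and Wnt8a higher and Fgf4 and Fgf9 lower at 8 h. Over all tested rows the share was 10.8%, with 5.72% higher and 5.08% lower. Leaving out 8 h replicate 3 gave a median of -0.55 and leaving out control 2 one of 0.91, over the 39 genes that then passed the filter.

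The sign of the log2 fold change stayed the same without each of the 6 libraries in turn for 13 of the 31 genes, or 41.9%, and for 51.1% of all tested rows. Fgf2, Fgf4 and Fgf13 were the only members with at least 10 counts in every library, and all 3 were among the 13. Fgf2 stayed between 1.09 and 1.82 and Fgf4 between -3.29 and -2.02. By contrast Wnt2 ran from -2.32 to 9.44 and Wnt5b from -4.14 to 6.94.

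**Figure D5:**
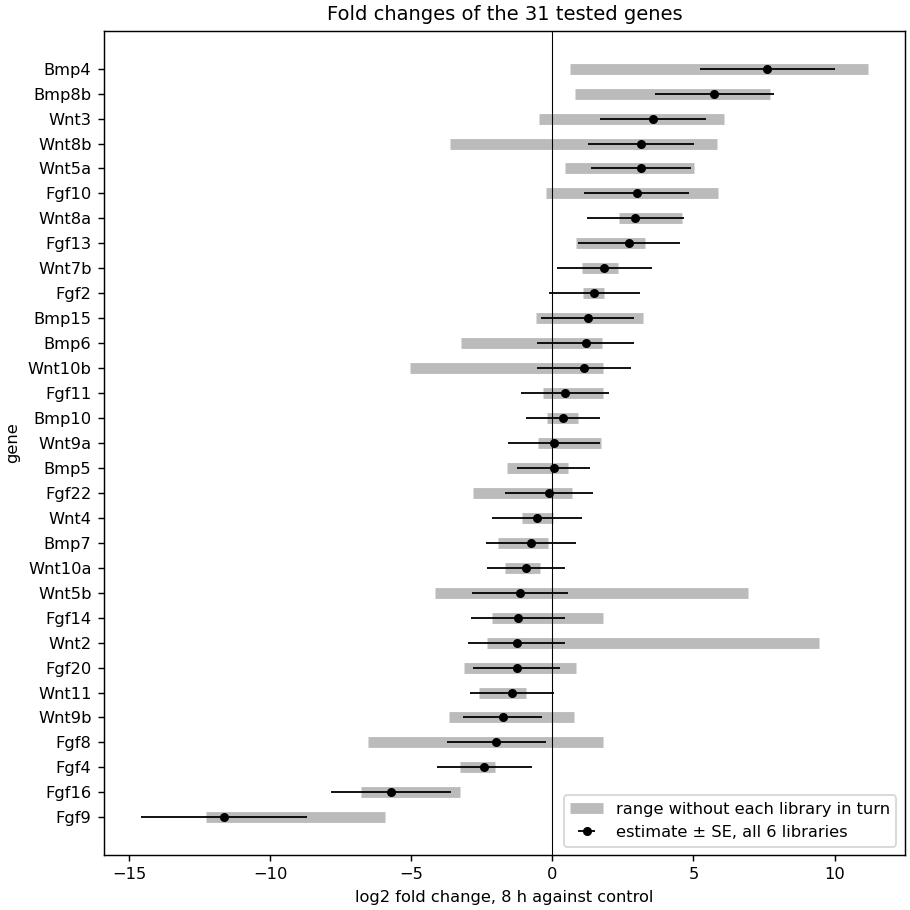
Log2 fold change of 8 h against control for the 31 tested genes (points, with bars of 1 SE) and the range of the estimate when each library is left out in turn (grey). Grey ranges of Fgf2, Fgf4 and Wnt8a are short and stay on 1 side of 0, while those of Wnt2, Wnt5b and Wnt8b cross it.

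Several of the genes are neighbours in the genome, and 10 pairs lay within 500 kb of each other. On chromosome 7, Fgf3 (144838612 to 144843348), Fgf4 and Fgf15 (144896532 to 144900953) follow one another, yet their highest libraries were 8 h replicate 2, control 3 and 8 h replicate 3. Fgf23 and Fgf6 lie 48.2 kb apart on chromosome 6 and peaked in controls 3 and 1. Wnt1 and Wnt10b, 11.7 kb apart on chromosome 15, peaked in 8 h replicates 2 and 1. Wnt3 and Wnt9b overlap on chromosome 11 in the RefSeq gene table. Reads of the overlap could count for either, and how they were counted was not tested. Wnt3 peaked in 8 h replicate 1, where Wnt9b had 0 counts. Of the 10 pairs 1 shared its highest library, namely Fgf17 and Bmp1, in 8 h replicate 2.

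Receptors and other genes of the 3 pathways were read from fixed lists, and edgeR called 0 of their 61 tested genes (background 0%). Of 18 tested FGF receptor and signalling genes 11 had higher and 7 lower values, with a median log2 fold change of 0.53. Their summed level was 304 to 407 CPM in controls and 417 to 634 CPM at 8 h. These sums did not overlap. On its own 0 of the 25 matched genes was free of overlap, where 10.8% of all tested rows were. The sums overlapped without Fgfr1 (222 to 406 against 274 to 631 CPM), without Spry1 and without Gab1. Without Dusp6 they stayed apart, at 105 to 236 CPM in controls against 308 to 438 CPM at 8 h. Dusp6, a phosphatase that dampens the FGF cascade, had 377, 1519 and 1388 counts in the control libraries against 924, 2608 and 539 at 8 h, one of the steadier genes here. Fgfr1, the receptor that Fgf2 binds, had 4, 4 and 1197 against 1222, 40 and 25. The FGF feedback inhibitors Spry1 and Spred2 had 513, 27 and 216 against 557, 1874 and 22 and 368, 20 and 40 against 53, 2009 and 670. High values thus occurred in both groups.

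Of 19 tested WNT receptor and signalling genes 11 had higher and 8 lower values, with a median of 0.10, and of 9 tested WNT inhibitors and Tle co-repressors 4 and 5, with a median of -0.43. Fzd6, a Frizzled receptor, had 1, 0 and 38 counts in the control libraries against 210, 4515 and 1 at 8 h (log2 fold change 6.59 ± 2.23 SE, or 3.26 without 8 h replicate 2; edgeR adjusted p = 0.346, DESeq2 adjusted p = 0.0130). Ror1, a WNT5A receptor, had 1, 2100 and 67 against 37, 81 and 0. Both genes again drew on 1 library. Ctnnb1, the beta-catenin gene, had only 1 to 6 counts in every library. The kinase Gsk3a, with 291, 91 and 683 against 601, 200 and 108 counts, and Pygo2, a co-activator of beta-catenin, with 654, 13 and 342 against 329, 701 and 477, overlapped between groups. Tle4 had 7, 582 and 909 against 21, 1554 and 81 and Tle1 9, 5 and 32 against 100, 98 and 90, the latter without overlap. Of the 9 tested WNT inhibitors and Tle co-repressors, 1 was higher and 1 lower at 8 h without overlap. Over all tested rows the shares were 5.72% higher and 5.08% lower. The secreted antagonists Dkk3 and Dkk4 had 96, 4 and 595 against 3, 94 and 2 and 860, 1 and 83 against 0, 2 and 2.

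Of 7 tested BMP receptor and signalling genes 2 had higher and 5 lower values, with a median of -0.21, and of 8 tested BMP inhibitors 4 and 4, with a median of -0.07. Smad7, an inhibitory Smad, had 529, 26 and 231 counts in the control libraries against 21, 244 and 498 at 8 h, and Id3, a BMP target, 81, 15 and 100 against 106, 138 and 360. Id4 had 465, 0 and 8 against 47, 2 and 8 and Acvrl1, a receptor, 59, 32 and 421 against 9, 62 and 57. None of these groups was free of overlap. Noggin (Nog), which traps BMPs, had 3, 5 and 0 counts in the control libraries against 1711, 1 and 213 at 8 h, and was not tested. Chrdl1 had 16, 6 and 61 against 73, 172 and 118, without overlap, and Sostdc1 35, 10 and 2 against 25, 1 and 199. Of the 8 tested BMP inhibitors, 1 was higher and 1 lower at 8 h without overlap, where 5.72% and 5.08% of all tested rows were. In 8 h replicate 2, where Bmp4 had 6293 counts, Noggin and Sostdc1 had 1 each, whereas Chrdl1 had its highest count, 172. A relation between Bmp4 and these inhibitors was not tested.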

How the data were processed

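The authors deposited whole-number read counts for 13177 RefSeq transcript accessions in 6 libraries, and per the labels' protocols and the series' design text these came from TruSeq libraries read as single reads of 50 bases. The submitters' processing notes list Bowtie, R 3.4.2 and the build GRCm38 without saying what each was used for. The sources used here do not name the counter, its annotation, its use of strand or its treatment of multiple matches. Columns were matched by title, and 0 lay outside the series. Symbols were looked up by accession in RefSeq (GRCm38.p6, 12827 accessions) or GENCODE M21 (47), and 303 stayed unnamed. Transcript lengths came from GENCODE M21 for all 51 growth factor genes.

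Groups were compared in edgeR 4.0.16 (R 4.3.3) with TMM scaling, filterByExpr (8308 rows kept) and the robust quasi-likelihood F test, two-sided, with Benjamini-Hochberg adjustment over all tested rows at 0.05. SE was taken from the log2 fold change and the F statistic. DESeq2 1.42.0, a replicate block, RLE scaling, no filter and leaving out each library were alternatives. Members and lists were chosen with earlier results of these data known. Genes named are all tested members, those with at least 100 counts in a library, the 3 highest of each family and, per pathway list, the 4 highest by mean CPM; Ctnnb1 and the members with fewer counts were added after their values were seen, and so was the choice of tested members whose fold change is printed beside their levels. The values of 1 pathway gene are not reported here.

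Scripts were tested on simulated counts of 8308 genes, at the spread between replicates fitted here and at a dispersion divided by 20. At the smaller dispersion edgeR called 50 of 50 genes given a log2 change of 6, with 10 false calls over all genes. Intervals cover counting error only, as reads carried no molecular identifiers.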

Additional observations from a re-analysis of the deposited data

How the results depend on the processing

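The count of differing genes was 0 over all rows, over the growth factor genes and over the pathway genes with the replicate block, RLE scaling, no filter and without each library (0 to 0). With DESeq2 it was 399 over all rows, 1 over the growth factor genes (Fgf16, adjusted p = 0.0103) and 2 over the pathway genes, of which Fzd6 is described. Because replicates spread so widely, a 0 here is no sign of stability. Deviations of libraries with the same number correlated at -0.0107, 0.0151 and -0.0039, so the numbers were not taken to pair the samples. With the block the median log2 fold change of the tested growth factor genes was 0.15, that of Bmp4 4.43, that of Bmp8b 2.01 and that of Wnt8b -2.77. The sign turned with the block for 7 of the 31 tested genes, or 22.6%, and for 15.5% of all tested rows. For these 7 the log2 fold change became 6.04 for Wnt2, 3.67 for Wnt5b, 0.19 for Wnt9b, -0.84 for Bmp5, -2.02 for Bmp6, -3.42 for Wnt10b and the value above for Wnt8b. The sign of Wnt9a turned with RLE scaling, to -0.0073, and with DESeq2, to -0.0078. Without each library the log2 fold change took both signs for 18 of the 31 genes, or 58.1%, and for 48.9% of all tested rows. Among Fgf genes it ran from -0.23 to 5.88 for Fgf10, -6.53 to 1.79 for Fgf8, -0.32 to 1.78 for Fgf11, -2.15 to 1.78 for Fgf14, -3.13 to 0.83 for Fgf20 and -2.82 to 0.71 for Fgf22. Among Wnt genes it ran from -3.65 to 5.82 for Wnt8b, -2.32 to 9.44 for Wnt2, -0.48 to 6.09 for Wnt3, -1.08 to 0.0296 for Wnt4, -4.14 to 6.94 for Wnt5b, -0.51 to 1.73 for Wnt9a, -3.66 to 0.76 for Wnt9b and -5.03 to 1.78 for Wnt10b. Among Bmp genes it ran from -1.62 to 0.57 for Bmp5, -3.23 to 1.77 for Bmp6, -0.19 to 0.91 for Bmp10 and -0.58 to 3.20 for Bmp15. The median was 0.03 with RLE scaling, 0.08 over the 51 genes without a filter, 0.02 with DESeq2 and -0.55 to 0.91 without each library, where 35 to 39 genes passed the filter. On TMM-scaled library sizes the share of counts on the 51 genes was 0.0657% in controls and 0.0720% at 8 h. Per kilobase of the longest annotated transcript the median level was 1.90 CPM per kb in place of 2.20. The cause of these changes was not tested.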
